A study of Mus musculus with 6 samples.

Results

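The genes described here carry signals of the transforming growth factor beta (TGF-beta) superfamily in luminal progenitor cells (LPs) of the mouse mammary gland. They were chosen by name, as 40 genes for TGF-beta, activin and bone morphogenetic protein (BMP) ligands, their receptors, SMADs, inhibitors and the *Id* genes. Of these, 39 had a row among the 18537 gene rows of the table, *Grem1* had none, and 36 passed a filter on low reads and were tested. RNA-seq had been performed on poly(A)+ RNA of LPs sorted by FACS as Lin-CD24loCD29+CD61+ cells from adult nulliparous mice, with 3 Robo1+/+ libraries (gh03, gh09 and gh15) and 3 Robo1-/- libraries (gh06, gh12 and gh18), each made from 2 animals. The Robo1-/- mice carried the Robo1 tm1Matl allele in the whole body, and both genotypes were littermates from crosses of Robo1+/- parents. The libraries address what the loss of ROBO1, a receptor for SLIT ligands, changes in these cells. Since whole sorted fractions were sequenced, fewer cells of one kind and less RNA per cell cannot be told apart.

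In this superfamily, a secreted dimer brings together type II and type I serine/threonine kinase receptors, and the activated type I receptor phosphorylates SMAD proteins that enter the nucleus with the shared partner SMAD4. TGF-betas and activins act mostly through SMAD2 and SMAD3, and BMPs through SMAD1, SMAD5 and SMAD8, whose best known targets include the *Id* genes, encoding inhibitors of basic helix-loop-helix factors. In the mammary gland, TGF-beta restrains ductal growth, while the activin/inhibin beta B subunit and ID2 are both needed for normal alveolar development.

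The receptors *Acvr2a* and *Acvr2b*, the paired type II receptors for activins, are shown first because they are close in protein function but far apart in base composition, and because library gh18 separated genes by base composition. The second coding exon of each, 208 bases long in both, was read from the plus strand of mouse build NCBIM37 (mm9), at chr2:48725809-48726016 for *Acvr2a* and at chr9:119336573-119336780 for *Acvr2b*. Capitals mark G and C.
Acvr2a: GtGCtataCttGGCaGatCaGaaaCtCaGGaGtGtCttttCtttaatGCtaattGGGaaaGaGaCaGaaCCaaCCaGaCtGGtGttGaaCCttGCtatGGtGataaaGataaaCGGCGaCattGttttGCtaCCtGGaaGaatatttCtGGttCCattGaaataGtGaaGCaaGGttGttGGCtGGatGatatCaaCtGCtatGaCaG
Acvr2b: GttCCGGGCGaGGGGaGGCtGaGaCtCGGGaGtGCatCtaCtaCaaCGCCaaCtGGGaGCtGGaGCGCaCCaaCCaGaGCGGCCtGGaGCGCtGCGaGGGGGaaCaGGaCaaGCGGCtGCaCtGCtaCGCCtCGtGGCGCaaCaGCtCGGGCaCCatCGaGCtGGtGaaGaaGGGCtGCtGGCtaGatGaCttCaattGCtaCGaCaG
The exons were identical at 130 of 208 aligned positions (62.5%), and G and C made up 40.9% of the *Acvr2a* exon against 63.0% of the *Acvr2b* exon. Over the whole transcripts the GC content was 39.9% for *Acvr2a* and 62.0% for *Acvr2b*.

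The 250 bases before the start of *Id2*, *Id3* and *Id4* are given because the *Id* genes are the readout of BMP signaling on the list. The window of *Id1*, which is also on the list, is not shown. They come from RefSeq on build GRCm38.p6, at chr12:25096093-25096342 (minus strand), chr4:136143572-136143821 (plus strand) and chr13:48260866-48261115 (plus strand). Capitals mark matches on either strand to GGCGCC, a GC-rich site known for SMAD1 and SMAD5, to CAGACA, the SMAD-binding element, or to CANNTG, the E-box bound by the partners of ID proteins.
Id2: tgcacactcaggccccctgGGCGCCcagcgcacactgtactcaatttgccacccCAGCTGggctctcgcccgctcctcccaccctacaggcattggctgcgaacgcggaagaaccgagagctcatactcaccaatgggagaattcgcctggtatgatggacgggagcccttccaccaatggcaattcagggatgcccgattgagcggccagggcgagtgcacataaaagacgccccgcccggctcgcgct
Id3: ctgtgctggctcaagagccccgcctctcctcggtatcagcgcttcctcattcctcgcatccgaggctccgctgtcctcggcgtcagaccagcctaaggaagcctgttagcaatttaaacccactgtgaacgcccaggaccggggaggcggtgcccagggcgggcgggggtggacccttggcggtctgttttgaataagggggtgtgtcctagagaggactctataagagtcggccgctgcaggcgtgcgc
Id4: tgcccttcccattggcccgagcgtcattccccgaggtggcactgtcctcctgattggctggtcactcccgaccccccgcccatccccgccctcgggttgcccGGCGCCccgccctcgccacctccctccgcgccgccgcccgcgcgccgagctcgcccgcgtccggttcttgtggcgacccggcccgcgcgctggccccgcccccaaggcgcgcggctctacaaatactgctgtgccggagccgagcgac
*Id2* held 1 GGCGCC and 1 E-box (CAGCTG), *Id4* held 1 GGCGCC, and the *Id3* window held none of these letters. Among all 32851 promoter windows of this length, 9.59% held GGCGCC, 17.1% held CAGACA and 66.2% held CANNTG. The 37 windows matched to 27 of the 40 signaling genes held them in 7 (18.9%), 6 (16.2%) and 15 windows (40.5%), in the same order. These matches describe sequence and were not tested as binding sites.

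Values are normalized read counts, the reads of a gene divided by a size factor of its library. The recovered reads per library ran over 10494297 to 17433868 (Robo1+/+) and 9727191 to 15185303 (Robo1-/-). Library gh18 stood apart in how its log2 deviation from the other libraries of its genotype followed transcript GC content. The Spearman correlation was -0.76 over 12538 genes, against -0.09 to 0.12 in the Robo1+/+ libraries. It was 0.75 in gh06 and 0.55 in gh12. The 3 deviations sum to 0, so gh06 and gh12 together mirror gh18, but any difference between them is not fixed by this. Leaving out gh18 therefore need not remove every GC trend. Log2 fold changes that rest on gh18 are also given without it or with a GC correction, but not every gene has a log2 fold change in the text. In *Ltbp3*, *Inha*, *Bmp7*, *Smad6* and *Smad7*, among others, it was below 0 over all libraries and above 0 without gh18. In the GC correction, a smooth curve on GC content of each library's deviations from the mean over all libraries was subtracted. *Robo1* itself had normalized read counts of 289, 574 and 541 in Robo1+/+ and of 130, 214 and 177 in Robo1-/-, so that the genotypes did not overlap and the Robo1-/- mean was 37.1% of the Robo1+/+ mean (log2 fold change -1.39, standard error 0.36, limma adjusted p = 0.86). All 11 LP markers were detected and tested, with summed normalized read counts of 110699 to 138150 in Robo1+/+ and 81109 to 162977 in Robo1-/-. In Robo1+/+ most of this sum was *Krt8*, *Krt18* and *Epcam*. The paper uses KRT8 as a luminal marker, so the sum is not specific to LPs. Both *Krt8* and *Krt18* were lowest in gh18. Among the 11, *Lalba* and *Csn3* lay wholly higher in Robo1-/-, beside 4.83% of all tested genes, and *Csn3* overlapped with the GC correction. Markers of hormone-sensing luminal cells, all 10 tested, summed to 47292 to 59843 in Robo1+/+ and to 62200 to 74207 in Robo1-/-. These ranges do not overlap, although among single markers of this list this held for *Pgr* alone. *Prlr* and *Areg* make up most of that sum, and the means of *Wnt4* (503 against 226), *Tnfsf11* (661 against 183) and *Cited1* (3136 against 2493) were lower in Robo1-/-. For *Cited1* this rested on gh18, with 3240, 3954 and 286 in gh06, gh12 and gh18. Its log2 fold change of -1.01 was 0.20 without gh18 and 0.03 with the GC correction described above. *Wnt4* had 460, 213 and 4.38 in these libraries, and its log2 fold change of -2.60 was -0.65 without gh18. Basal markers summed to 907 to 2548 and 1080 to 1864, fibroblast markers to 735 to 850 and 340 to 1070, endothelial markers to 1387 to 2482 and 210 to 1701, and leukocyte markers to 118 to 161 and 96.3 to 123. In Robo1-/-, gh18 had the lowest LP, endothelial and leukocyte sums. The endothelial sum is mostly *Vwf* and *Eng*, with *Cdh5* at most 1 read, and the leukocyte sum mostly *Cd68*, with *Ptprc* at most 1 read. The part of any of these cells in the values below was not tested.

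LPs of both genotypes contained RNA for every TGF-beta, activin and BMP receptor and every SMAD on the list, and no gene of the set passed a test for a difference between the genotypes. None of the 36 tested genes had a limma adjusted p below 0.05, where the smallest was 0.86, and this was also so for all 13692 tested genes (0% called). At an unadjusted p below 0.05, limma called 0 of the 36, DESeq2 on recovered reads 0 of 39 and edgeR on recovered reads 0 of 36, and these tools called 1.69%, 1.81% and 1.61% of all genes they tested. The median log2 fold change of the 36 genes was -0.08, with 16 above and 20 below 0, beside a median of 0.00 over all tested genes. In *Skil* and *Tgfbr3* every Robo1-/- value lay above every Robo1+/+ value, which is 2 of 36 (5.56%) beside 4.83% of all tested genes. No gene of the set lay wholly lower in Robo1-/-, beside 4.58% of all tested genes.

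**Figure D1:**
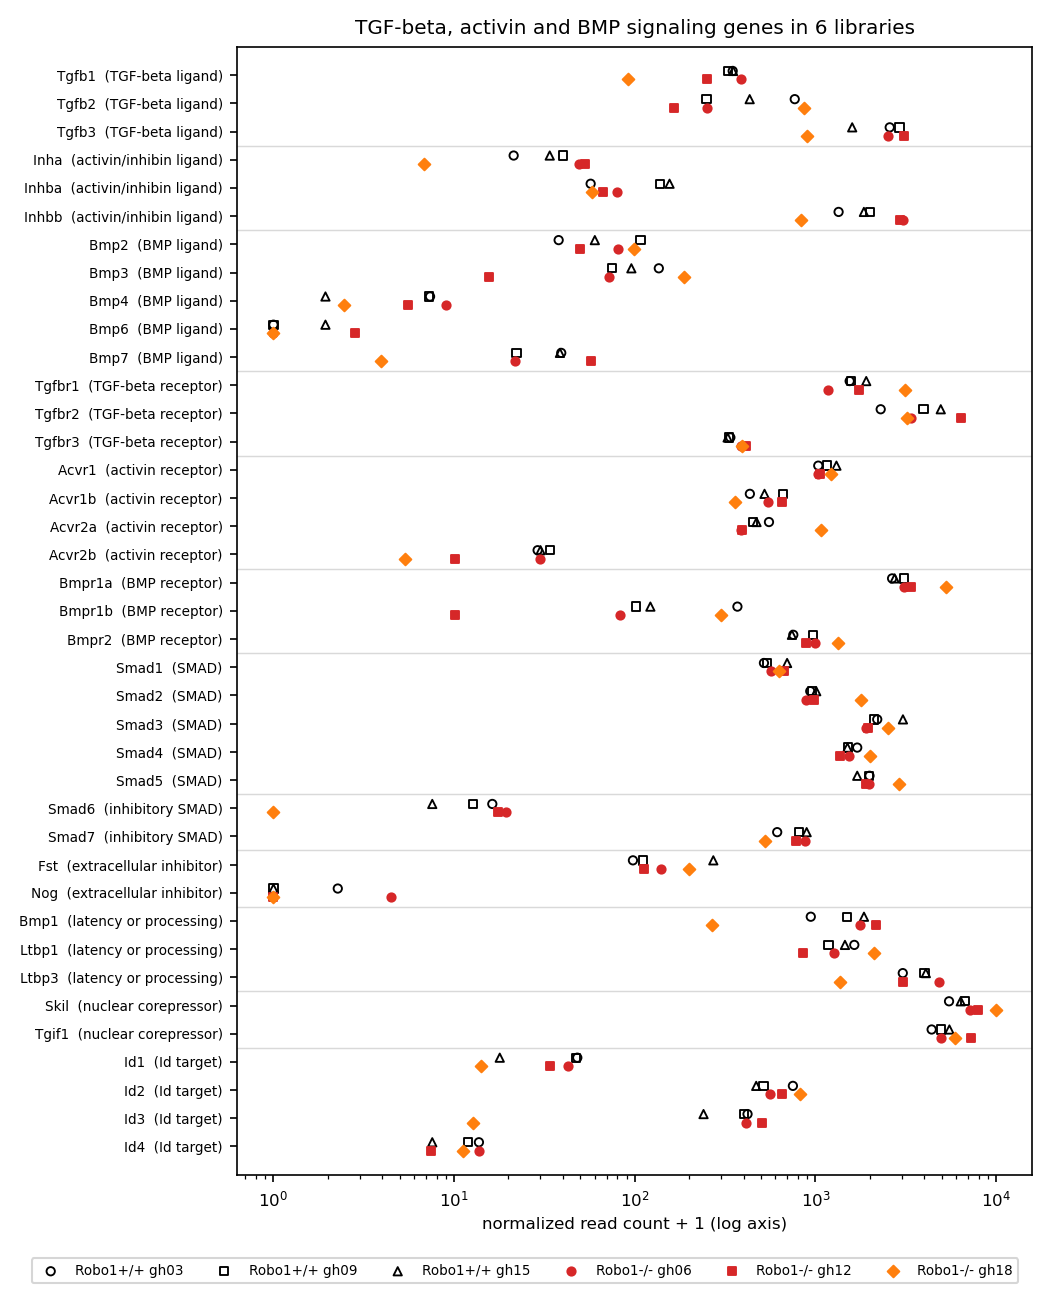
Normalized read count plus 1 (log axis) of each of the 39 genes with a row, by role, with open black symbols for the 3 Robo1+/+ libraries, filled red symbols for Robo1-/- gh06 and gh12 and orange diamonds for gh18. *Skil*, at 5489 to 9972, is high in every library, while *Bmp6* and *Nog* lie at or near 0, and the orange diamonds fall at the low or high end for many genes.

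Among the TGF-beta ligands, *Tgfb3* was the most abundant per length. The normalized read count per kilobase of transcript averaged 698 ± 202 (SD, n = 3) for *Tgfb3* in Robo1+/+, against 157 ± 5.47 for *Tgfb1* and 102 ± 55.7 for *Tgfb2*. *Tgfb3* made up 65.2% to 80.9% of the summed ligand level per kilobase in Robo1+/+ and 54.3% to 85.9% in Robo1-/-. Normalized read counts for *Tgfb3* reached 2576, 2915 and 1597 in Robo1+/+, against 2515, 3073 and 900 in Robo1-/- (gh18 last). Only gh18 lay below the Robo1+/+ range, and the log2 fold change of -0.26 (standard error 0.49) became 0.28 without gh18. *Tgfb1*, the ligand best known for restraining ductal growth, had 347, 328 and 349 in Robo1+/+ and 388, 249 and 90.5 in Robo1-/-. The Robo1+/+ libraries were nearly equal and the Robo1-/- libraries spread to both sides of them, with log2 fold changes of -0.72 (standard error 0.52) over all libraries, 0.33 with the GC correction and -0.13 without gh18. *Tgfb2* varied widely within each genotype, over 248 to 767 (Robo1+/+) and 163 to 861 (Robo1-/-).

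TGF-beta is secreted in a latent complex with LTBP proteins. *Ltbp3*, which encodes one of them, averaged 716 ± 112 per kilobase in Robo1+/+ (SD, n = 3), close to *Tgfb3*, and *Ltbp1* averaged 214 ± 34.7. *Ltbp3* had normalized read counts of 3043, 4015 and 4083 in Robo1+/+, against 4813, 3048 and 1370 in Robo1-/-, where both the highest and the lowest library was Robo1-/-. *Bmp1*, which in spite of its name encodes a metalloprotease that processes collagens, LTBP1 and the BMP antagonist chordin, had 941, 1492 and 1856 in Robo1+/+ and 1761, 2160 and 267 in Robo1-/-. The direction for *Bmp1* rested on gh18, since the log2 fold change was -0.45 (standard error 0.78) over all libraries, 0.50 without gh18 and 0.23 with the GC correction.

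All 3 TGF-beta receptor genes were expressed. *Tgfbr2*, the type II receptor, averaged 462 ± 165 per kilobase in Robo1+/+ (SD, n = 3), the type I receptor *Tgfbr1* 291 ± 35.3, and *Tgfbr3* (betaglycan, the co-receptor that presents TGF-beta2 and inhibin) 54.4 ± 0.966. *Tgfbr2* had normalized read counts of 2296, 3964 and 4939 in Robo1+/+, against 3358, 6355 and 3198 in Robo1-/-, so that the genotypes overlapped (log2 fold change 0.20, standard error 0.38). *Tgfbr3*, on chromosome 5 from 107535589 to 107718648 (mm9), had 337, 330 and 326 in Robo1+/+ and 384, 411 and 390 in Robo1-/-. All 3 Robo1-/- libraries, gh18 included, lay above the narrow Robo1+/+ range. The log2 fold change was 0.25 (standard error 0.21, limma adjusted p = 0.86), 0.26 without gh18 and 0.16 with the GC correction, after which the genotypes overlapped. The two-sided exact permutation p was 0.1, the smallest that 3 against 3 libraries allow. Any gene whose genotypes do not overlap has this p, so it adds nothing to the lack of overlap.

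Of the activin and inhibin subunits, LPs contained mainly *Inhbb*, the beta B subunit of activin B and inhibin B. *Inhbb* averaged 407 ± 81.0 per kilobase in Robo1+/+ (SD, n = 3), against 59.3 ± 26.9 for *Inhba* and 20.9 ± 6.49 for *Inha*, the alpha subunit found only in inhibins. *Inhbb*, on chromosome 1 from 121312042 to 121318825 (mm9), had normalized read counts of 1342, 1998 and 1854 in Robo1+/+ and of 3045, 2926 and 830 in Robo1-/-. Both gh06 and gh12 lay above, and gh18 below, all Robo1+/+ libraries, and the transcript is rich in GC (60.9%). Over all libraries the log2 fold change was 0.19 (standard error 0.51). It was 0.81 (standard error 0.20, limma unadjusted p = 0.0054, adjusted p = 0.94) without gh18 and 1.11 (standard error 0.23, limma unadjusted p = 0.0020, adjusted p = 1.00) with the GC correction. With the GC correction *Inhbb* was the only one of the 36 genes with an unadjusted p below 0.05, beside 1.57% of all genes, and the only one with wholly higher Robo1-/- values, beside 3.43%. None lay wholly lower, beside 3.13% of all genes. It did not pass the adjusted threshold in any of these fits.

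*Inha* had 20.4, 39.2 and 32.8 in Robo1+/+ and 48.3, 52.2 and 5.84 in Robo1-/-. As for *Inhbb*, gh06 and gh12 were the highest libraries and gh18 the lowest. *Inhba*, encoding the beta A subunit, had 56.0, 137 and 155 in Robo1+/+ and 78.3, 66.0 and 56.9 in Robo1-/-, with library gh03 below all others. *Fst*, whose product follistatin traps activins, had 96.7, 111 and 271 in Robo1+/+ and 138, 112 and 198 in Robo1-/-, with gh15 the highest library.

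**Figure D2:**
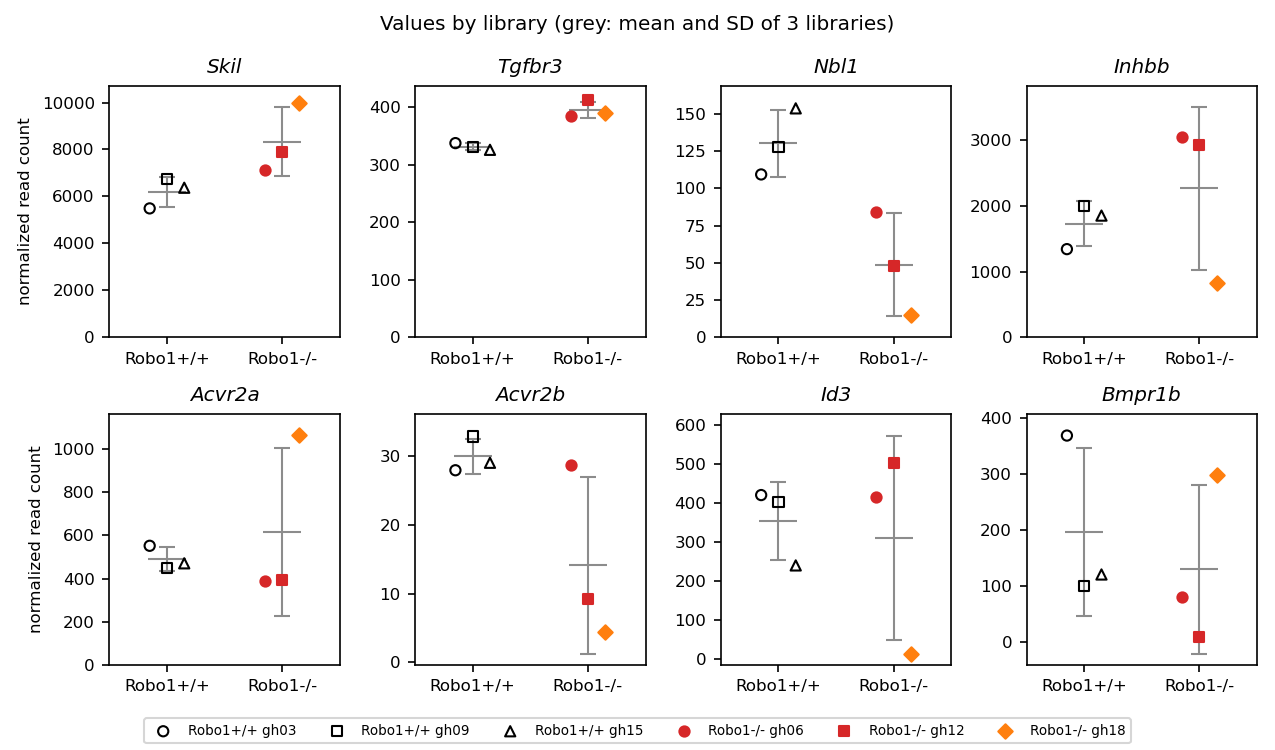
Normalized read count (linear axes) in each library of 8 genes, with grey bars for the mean and SD of the 3 libraries of a genotype and orange diamonds for Robo1-/- gh18. *Skil* and *Tgfbr3* are higher and *Nbl1* is lower in all Robo1-/- libraries, while in *Inhbb*, *Acvr2a* and *Id3* gh18 lies on the other side of Robo1+/+ from gh06 or far from both.

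The activin receptors differed in level per length. In Robo1+/+, *Acvr1* (ALK2, a type I receptor used mainly by BMPs) averaged 354 ± 41.1 per kilobase (SD, n = 3), *Acvr1b* (ALK4, the activin type I receptor) 164 ± 35.3, *Acvr2a* 86.4 ± 9.45 and *Acvr2b* 17.3 ± 1.498. *Acvr1* had normalized read counts of 1036, 1160 and 1306 in Robo1+/+ and of 1027, 1053 and 1221 in Robo1-/-, which overlap. *Acvr2a* had normalized read counts of 552, 451 and 471 in Robo1+/+ and of 388, 393 and 1067 in Robo1-/-. Here gh06 and gh12 lay below, and gh18 far above, every Robo1+/+ library, and the log2 fold change of 0.16 (standard error 0.42) became -0.33 without gh18 and -0.19 with the GC correction. *Acvr2b*, whose exon above is rich in G and C, had 28.0, 32.9 and 29.1 in Robo1+/+ and 28.8, 9.16 and 4.38 in Robo1-/-. Library gh18 was lowest and gh06 was within the Robo1+/+ range. Its log2 fold change of -1.39 (standard error 0.65, limma unadjusted p = 0.068, adjusted p = 0.86) had the smallest p of the set, moved to -0.38 with the GC correction and to -0.83 without gh18, and rests on 3 reads in gh18 and 10 reads in gh12.

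BMP ligand RNA was low in LPs. *Bmp3*, a BMP that antagonizes osteogenic BMPs, was the highest per length at 32.5 ± 9.99 per kilobase in Robo1+/+ (SD, n = 3), followed by *Bmp2* at 19.0 ± 10.01 and *Bmp7* at 8.80 ± 2.63. *Bmp4* had 1 to 8 reads per library, *Bmp6* at most 2, and neither was tested. *Bmp3* had normalized read counts of 135, 73.7 and 94.8 in Robo1+/+ and of 71.4, 14.7 and 187 in Robo1-/-. The highest and the lowest library were both Robo1-/-. *Bmp7* had 38.2, 21.2 and 37.5 in Robo1+/+ and 20.7, 55.9 and 2.92 in Robo1-/-, with the same spread to both sides, and *Bmp2* ranged from 36.9 to 107 and from 48.5 to 97.8.

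*Bmpr1a* and *Bmpr2* were more abundant than the BMP ligands on the same scale. The type I receptor *Bmpr1a* (ALK3) averaged 474 ± 37.5 per kilobase in Robo1+/+ (SD, n = 3), the type II receptor *Bmpr2* 234 ± 36.9, and the second type I receptor *Bmpr1b* (ALK6) 36.8 ± 27.9. *Bmpr1a* had normalized read counts of 2655, 3079 and 2743 in Robo1+/+ and of 3072, 3392 and 5308 in Robo1-/-. The genotypes overlapped only through gh06, and the log2 fold change of 0.43 (standard error 0.25), the highest of the set, was 0.19 without gh18 and 0.12 with the GC correction. *Bmpr1b* varied widely within both genotypes, and had 369, 100 and 121 in Robo1+/+ and 81.7, 9.16 and 299 in Robo1-/-. The libraries gh03 and gh18, of different genotypes, were the highest, and gh12 was lowest with 10 reads. The log2 fold change was -1.39 (standard error 1.19) over all libraries, -1.68 with the GC correction, -2.52 without gh18 (standard error 0.95, limma unadjusted p = 0.035, adjusted p = 0.94) and -0.08 without gh12.

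In none of the 7 SMAD genes did the genotypes separate. Of the receptor-regulated SMADs, *Smad3* averaged 481 ± 103 per kilobase in Robo1+/+ (SD, n = 3), *Smad2* 338 ± 13.4, *Smad5* 287 ± 24.5 and *Smad1* 155 ± 25.8, and the common partner *Smad4* averaged 465 ± 33.4. *Smad3* had normalized read counts of 2197, 2100 and 3050 in Robo1+/+ and of 1904, 1961 and 2517 in Robo1-/-. The genotypes overlapped through gh18 alone (log2 fold change -0.19, standard error 0.23), with log2 fold changes of -0.32 without gh18 and -0.0040 with the GC correction. *Smad2*, *Smad4* and *Smad5* were highest in gh18, at 1783, 1993 and 2914, where the other 5 libraries ranged from 890 to 1009, from 1373 to 1702 and from 1703 to 1991. *Smad9*, which encodes SMAD8 and is not one of these 7 genes, was nearly absent. It had 0, 0 and 0.94 in Robo1+/+ and 3.45, 2.75 and 2.92 in Robo1-/-, and was not tested. Of the inhibitory SMADs, which dampen signaling at the receptors, *Smad7* had 613, 811 and 893 in Robo1+/+ and 875, 784 and 524 in Robo1-/-, with gh18 the lowest library. *Smad6* was near the limit of detection at 6.57 to 15.3 in Robo1+/+ and 0 to 18.4 in Robo1-/-, where the 0 in gh18 allows up to 3 reads, or 4.38 normalized read counts.

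Both nuclear corepressors of SMADs were highly expressed. *Tgif1*, encoding a homeodomain repressor of TGF-beta target genes, had the highest level per length of the whole set, at 2878 ± 325 per kilobase in Robo1+/+ (SD, n = 3), and *Skil* (SnoN), which is itself a target of TGF-beta and blocks SMAD complexes, followed at 923 ± 95.7. *Tgif1* had normalized read counts of 4397, 4938 and 5514 in Robo1+/+ and of 4927, 7263 and 5908 in Robo1-/-, which overlap (log2 fold change 0.27, standard error 0.22). *Skil*, on chromosome 3 from 30993980 to 31021499 (mm9), had 5489, 6740 and 6370 in Robo1+/+ and 7139, 7893 and 9972 in Robo1-/-. All Robo1-/- libraries were above all Robo1+/+ libraries, with gh18 highest, and the transcript is low in GC (41.0%). The log2 fold change was 0.42 (standard error 0.21, limma unadjusted p = 0.090, adjusted p = 0.86, exact permutation p = 0.1, fixed by the lack of overlap as for *Tgfbr3*). It was 0.28 without gh18, with the genotypes still apart, and 0.10 with the GC correction, with the genotypes overlapping.

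**Figure D3:**
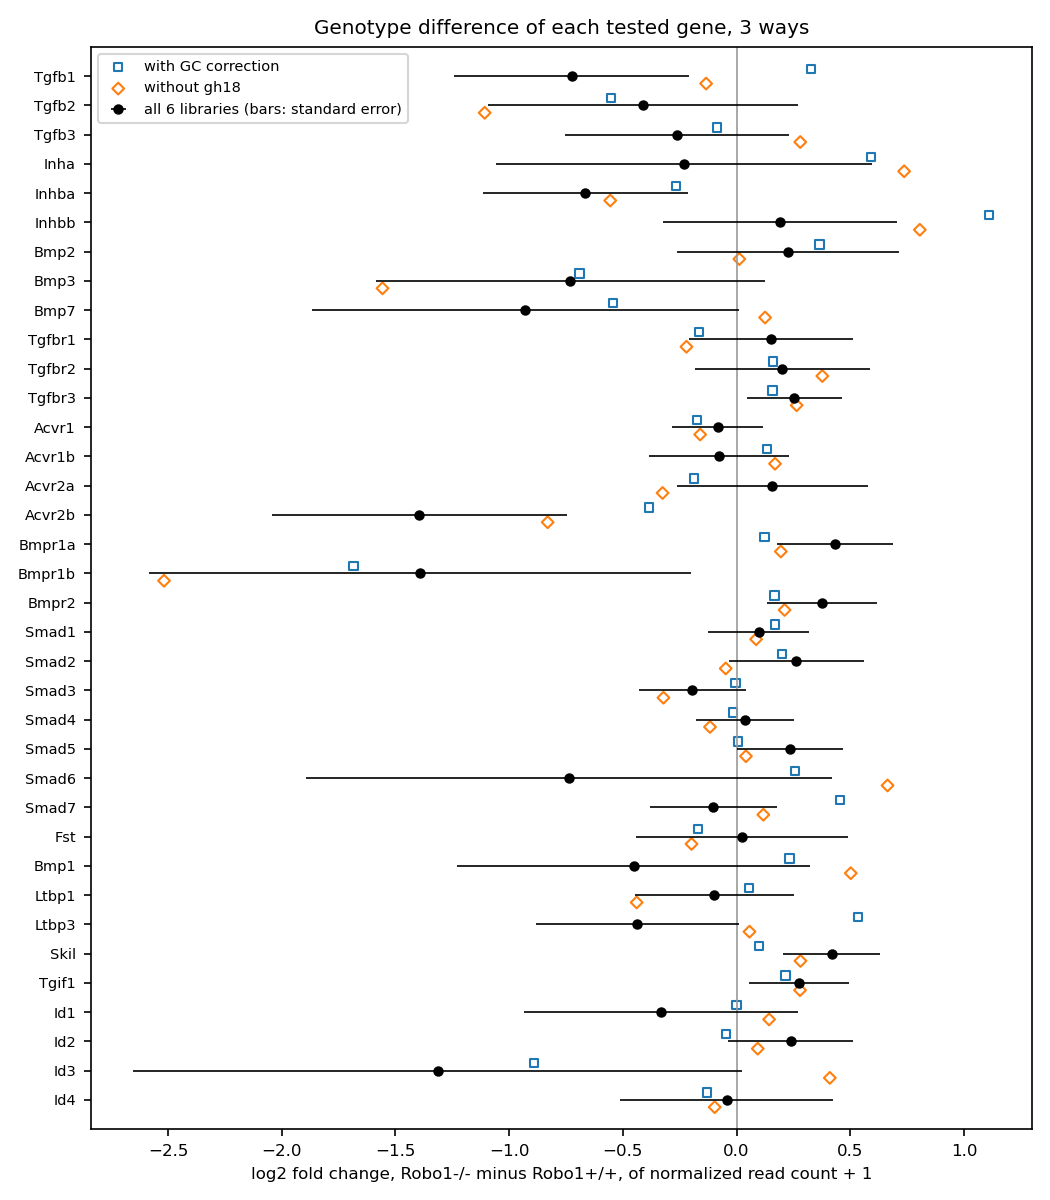
Log2 fold change of each of the 36 tested genes, Robo1-/- minus Robo1+/+, on the log2(normalized read count + 1) scale, from limma over all 6 libraries (black, bars are standard errors), with the GC correction (blue squares) and without gh18 (orange diamonds). *Inhbb* moves from 0.19 to 1.11 with the GC correction and *Acvr2b* from -1.39 to -0.38, while *Tgfbr3* and *Tgif1* move little.

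The *Id* genes, as targets of BMP signaling, showed no common direction. On the per-kilobase scale in Robo1+/+, *Id2* averaged 455 ± 118 (SD, n = 3), *Id3* 277 ± 77.8, *Id1* 31.7 ± 14.8 and *Id4* 6.08 ± 1.91. *Id2*, needed for alveolar development, had normalized read counts of 749, 515 and 469 in Robo1+/+ and of 557, 654 and 817 in Robo1-/- (log2 fold change 0.24, standard error 0.27). The genotypes overlapped. *Id1* had 47.1, 46.2 and 16.9 in Robo1+/+ and 41.4, 33.0 and 13.1 in Robo1-/- (log2 fold change -0.33, standard error 0.60), with gh15 and gh18 the lowest of their genotypes. *Id3* had 420, 401 and 239 in Robo1+/+ and 414, 502 and 11.7 in Robo1-/-. The value of gh18 corresponds to 8 reads, and the log2 fold change of -1.31 (standard error 1.34) became 0.41 without gh18 and -0.89 with the GC correction. *Id4* had 12.7, 11.0 and 6.57 in Robo1+/+ and 12.7, 6.41 and 10.2 in Robo1-/- (log2 fold change -0.04, standard error 0.47). As a share of the summed *Id* level per kilobase, *Id2* held 52.9% to 64.2% in Robo1+/+, 54.4% in gh06, 54.8% in gh12 and 96.0% in gh18. *Id3* held 32.6% to 41.0% in Robo1+/+, 40.2% in gh06, 41.8% in gh12 and 1.36% in gh18. In 5 libraries the mixture was thus alike, and gh18 differed.

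Base composition and gh18 moved together across the signaling genes as they did across all genes. The log2 level in gh18 minus the mean of gh06 and gh12 had a Spearman correlation with transcript GC content of -0.80 over the 36 genes and of -0.76 over 12538 genes; the points share these 3 libraries, and no test was applied. Of the 19 signaling genes above the median GC content of 50.4%, gh18 was the lowest of the 6 libraries in 13 (68.4%), beside 70.8% of all genes above it. Of the 17 at or below it, gh18 was the highest in 10 (58.8%), beside 65.5% of all genes there. Other genes lay far from the median of genes of like GC content. *Id3* differed by -5.17 on this log2 scale, where the median of the 502 genes around 55.6% GC was -1.20. *Bmpr1b* differed by 3.37 where the median near its GC content (42.2%) was 0.76, *Bmp3* by 2.48 where it was -0.09 (51.0%) and *Tgfb2* by 2.09 where it was 0.43 (47.5%). *Bmp7* differed by -3.16 where the median was -1.20, and *Smad6* by -4.20 where it was -2.46. The activin receptors lay nearer to it, *Acvr2a* at 1.45 beside 0.87 and *Acvr2b* at -1.69 beside -2.46.

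**Figure D4:**
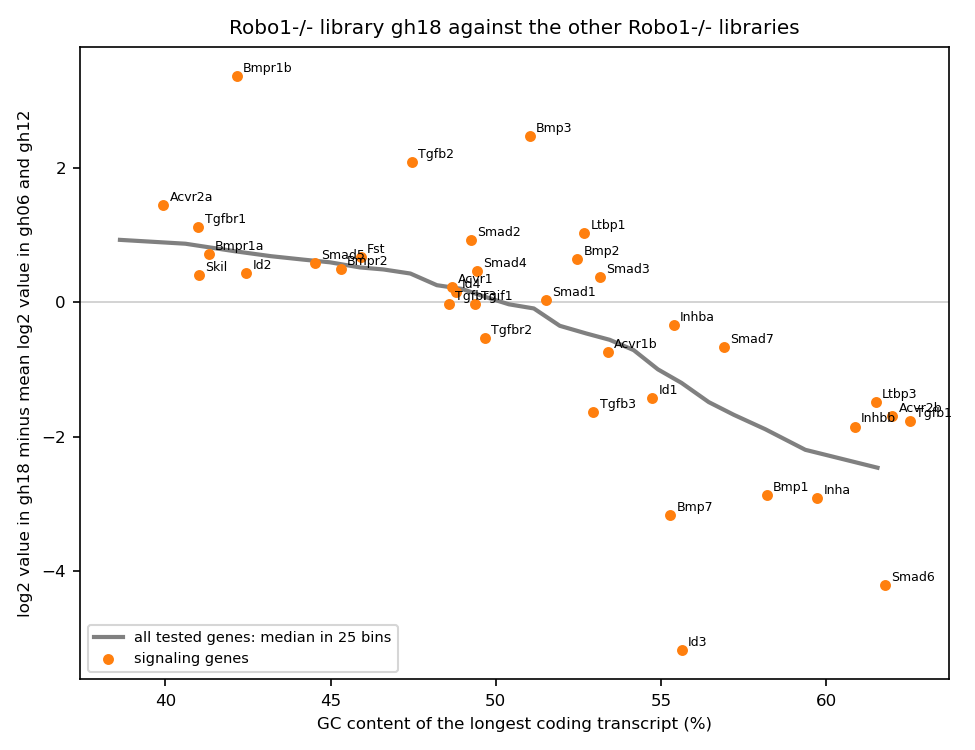
Log2 value in Robo1-/- library gh18 minus the mean log2 value in gh06 and gh12 against transcript GC content in percent, for the 36 tested signaling genes (orange, named) and as the median of all tested genes in 25 bins of GC content (grey line). The grey line falls from 0.93 to -2.46 with rising GC content, and most genes follow its slope, with *Id3* at -5.17 far below it and *Bmpr1b* at 3.37 and *Bmp3* at 2.48 far above it.

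The counts over the set were also taken without gh18. At an unadjusted p below 0.05, limma called 3 of 36 (8.33%), *Inhbb* higher and *Bmpr1b* and *Bmp3* lower, beside 4.2% of all genes. *Acvr2a*, *Smad3*, *Bmpr1b* and *Bmp3* lay wholly lower, which is 11.1% beside 10% of all genes. *Skil*, *Inhbb*, *Tgfbr3*, *Inha* and *Smad6* lay wholly higher, which is 13.9% beside 10.1%. With the GC correction as well, 3 of 36 (*Acvr2a*, *Inhbb* and *Bmpr1b*) had an unadjusted p below 0.05, beside 4.44% of all genes. Then 5 lay wholly lower, the 4 above and *Acvr2b*, beside 10.7%, and the same 5 as before lay wholly higher, beside 11%. None passed an adjusted p of 0.05 in either fit (0% of all genes).

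Of the extracellular BMP antagonists on the list, *Nog* (noggin) had at most 3 reads in a library and was not tested, and *Grem1* (gremlin) had no row. A wider list of 112 further genes of the pathway had 94 rows, of which 70 were tested. None passed an adjusted p of 0.05 and 1 had an unadjusted p below 0.05 (1.69% of all genes did). In Robo1-/-, 3 lay wholly lower (*E2f4*, *Nbl1* and *Fbn1*) and 2 wholly higher (*Zfyve9* and *Tcf12*), beside 4.58% and 4.83% of all genes, and the median log2 fold change was 0.02. With the GC correction, *E2f4* and *Nbl1* of these 5 stayed wholly lower and *Rgmb* became so, beside 3.13% of all genes. *Ctdsp2* and *Tsc22d1* became wholly higher with it, beside 3.43% of all genes. The gene with the small p was *Nbl1*, encoding DAN, a secreted BMP antagonist. It had normalized read counts of 109, 128 and 154 in Robo1+/+ and of 84.0, 47.6 and 14.6 in Robo1-/-. Every Robo1-/- library was below every Robo1+/+ library, with gh18 lowest, and its transcript has 61.1% GC. The log2 fold change was -1.70 (standard error 0.62, limma unadjusted p = 0.029, adjusted p = 0.86). It was -0.76 with the GC correction (limma unadjusted p = 0.031, adjusted p = 0.999) and -1.02 without gh18 (limma unadjusted p = 0.017, adjusted p = 0.94). *Nbl1* stayed wholly lower in both fits, as did 3.13% and 10% of all genes, in the same order. Without gh18, 3 genes of the wider list had a limma unadjusted p below 0.05, beside 4.2% of all genes. Besides *Nbl1* these were *Acvrl1* (log2 fold change 0.74, limma unadjusted p = 0.030) and *Bhlhe40* (0.50, limma unadjusted p = 0.040). Both lay wholly higher, beside 10.1% of all genes, and both had an adjusted p of 0.94.

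The other groups of that list are represented by their most abundant genes, given as the Robo1+/+ mean per kilobase. Among coreceptors *Neo1*, which binds RGM proteins, had 235, and among SMAD partners *Fkbp1a*, whose product holds type I receptors inactive, had 1148. *Twsg1*, a BMP modulator, had 728 and *Thbs1*, which can activate latent TGF-beta, had 2471. *Cyr61*, a matricellular target gene, had 3384 and *Tcf12*, an E protein bound by ID proteins, had 701. *Tcf12* had normalized read counts of 2784, 3404 and 3705 in Robo1+/+ and of 3910, 3750 and 5165 in Robo1-/-, all Robo1-/- libraries being above all Robo1+/+ libraries before but not after the GC correction. None of 3 E protein genes had an unadjusted p below 0.05. Of the 22 further ligand genes, 12 had a row and 1, *Bmp8b*, was tested, with 8.91 to 17.8 in Robo1+/+ and 8.75 to 21.9 in Robo1-/-.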

How the data were processed

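Poly(A)+ RNA from 3 Robo1+/+ and 3 Robo1-/- libraries of sorted luminal progenitors was analysed. Per the paper's methods, the authors cut reads to 75 bases, discarded repeat reads found by bowtie2, aligned what remained to NCBI37/mm9 (TopHat) and used DESeq2 for normalization. The counting tool and its use of strand are not given in the sources used here. The deposited values are a normalized signal, read counts divided by a size factor per library, and 0 values failed to come out as whole reads within 0.01.

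Values were tested as log2(value + 1) with limma 3.58.1 (R 4.3.3, empirical Bayes trend, Benjamini-Hochberg over 13692 genes kept by filterByExpr of edgeR 4.0.16 on recovered reads), in place of a count test because the values are normalized. The added 1 draws fold changes of low genes towards 0, but fold changes on this scale can also exceed those of count tools, as in Id3. DESeq2 1.42.0 and edgeR on recovered reads, TMM scaling, a GC correction (lowess, span 0.3), other filters and pseudocounts, and each library left out were alternatives. The p-values measure only the spread between these libraries, each a pool of 2 animals. Transcript length and GC come from the longest coding transcript of GENCODE M1, and no signaling gene with a row shared a 75-base sequence with another gene.

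The signaling genes, lists and naming rule were chosen with earlier results of these data known. Library values are given for signaling genes with an unadjusted p below 0.05 or without overlap, for the most abundant gene of each role and for the Id genes, and further genes were chosen after their values were seen. Statistical scripts were tested on simulated data.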

Additional observations from a re-analysis of the deposited data

How the results depend on the processing

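Of the 17 signaling genes with a fold change in the text, 7 (Skil, Tgfbr3, Bmpr1a, Smad3, Tgif1, Acvr2b and Bmpr1b) had the same direction under all 15 alternatives, though Smad3 was at -0.0040 with the GC correction. Over all genes, DESeq2 called 1 gene. With the GC correction, 1 of 36 signaling genes had an unadjusted p below 0.05 (1.57% of all genes) and 1 lay wholly higher (3.43%). Together with leaving out gh18, an alternative chosen after seeing the data, these numbers were 3 (4.44%) and 5 (11%), and 5 lay wholly lower (10.7%). Leaving out each library in turn gave 0 to 3 genes below an unadjusted p of 0.05, 0 to 4 wholly lower and 3 to 5 wholly higher, where 0.847% to 6.44%, 7.1% to 15.2% and 6.93% to 14.9% of all genes were. The median log2 fold change of -0.08 was 0.0571 with DESeq2, 0.0311 with the GC correction, 0.0650 with the correction and no gh18, and -0.125 to 0.0717 with each library left out.

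Direction turned with the GC correction for Id2 (-0.0452), Acvr2a (-0.19), Tgfb1 (0.33) and Bmp1 (0.23). With the correction and no gh18 it turned for Id1 (0.16), Id3 (0.44), Tgfb3 (0.28), Acvr2a (-0.38), Tgfb1 (0.0193) and Bmp1 (0.57). With each library left out, the log2 fold change ran from -0.80 to 0.14 in Id1, -2.25 to 0.41 in Id3, -0.30 to 0.20 in Id4, -0.60 to 0.28 in Tgfb3, -0.12 to 0.44 in Tgfbr2, -0.33 to 0.40 in Acvr2a, -0.13 to 0.81 in Inhbb and -1.003 to 0.50 in Bmp1. With DESeq2 and edgeR, in that order, the log2 fold change was nearer to 0 than in limma for some genes. These were Id3 (-0.20 and -0.19 against -1.31), Bmpr1b (-0.59 and -0.63 against -1.39) and Bmp1 (-0.04 and -0.03 against -0.45). It was further from 0 for Inhbb (0.39 and 0.39 against 0.19) and Acvr2a (0.33 and 0.31 against 0.16). The cause of these shifts was not tested. No paired analysis was run, because the labels state no pairing of libraries and the genotypes share no replicate codes. With 3 libraries per genotype and 1 of them set apart by GC content, a missed threshold does not show that a gene is unchanged. The standard errors were largest for Id3 (1.34) and Bmpr1b (1.19), and Smad6, Bmp7, Acvr2b and Id4 rest on few reads.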

Other observations

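Bmpr1b ordered the 6 libraries as gh03, gh18, gh15, gh09, gh06 and gh12, from high to low, across the genotypes. This order was shared, Bmpr1b included, by 33 of 13692 tested genes (0.241%), and they include the milk protein genes Csn2 and Csn1s2a, named after their values were seen. Csn2 had normalized read counts of 13698, 1139 and 2832 in Robo1+/+ gh03, gh09 and gh15 and of 674, 303 and 5456 in Robo1-/- gh06, gh12 and gh18. Csn1s2a had 3769, 661 and 729 in Robo1+/+ and 398, 357 and 1675 in Robo1-/-. Other milk genes did not follow this order: Csn3 was lowest in gh03 (7755) and highest in gh12 (19143), and so was Lalba (1323 and 3119). Tnfsf11 (RANKL), a progesterone-responsive gene of hormone-sensing cells, was also highest in gh03 and gh18 and lowest in gh12, at 1660, 199 and 124 in Robo1+/+ and 108, 0.92 and 439 in Robo1-/-. Other markers of those cells did not: Pgr, Esr1, Foxa1 and Prom1 were lowest in gh03, and Wnt4 was lowest in gh18. Among the signaling genes, Tgfb2 and Bmp3 likewise had their highest values in gh18 and gh03 and their lowest in gh12.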
